A study of Mus musculus with 24 samples.

Results

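The difference between the adult and the neonatal response to the MLL::ENL fusion was measured in mouse blood progenitors as a contrast of contrasts. The ME effect is the change in induced Tet-On-ME cells relative to control cells of the same age, and the difference is the ME effect at 8wk minus the ME effect at P14. It contrasts the means of 16 of the 24 libraries of the series, 4 in each of 4 groups. It was estimated for each of 18931 genes of the 55487 in the table that passed a filter on low counts. The groups were P14_Control and P14_ME, from bone marrow at postnatal day 14, and 8wk_Control and 8wk_ME, from bone marrow at 8 weeks. All 24 libraries were fitted together, including 4 E16_ME and 4 E16_Control libraries of embryonic day 16. The filter, the scaling and the spread behind every p-value thus rest on the E16 libraries too. All cells were Lineage-negative Sca1+KIT+ (LSK) when sorted and were then cultured for 48 h, with MLL::ENL switched on in culture in the ME cells. The genotype of the controls, whether they received the inducing agent, the promoter of the transgene and whether replicates were separate mice are not given in the sources used here. If replicates share a mouse or a pool, the p-values reflect only sample-to-sample spread that may be technical.

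MLL::ENL joins the amino-terminal part of the chromatin regulator MLL (gene Kmt2a) to the carboxy-terminal part of ENL (gene Mllt1), a reader of acetylated histones that binds elongation factors. The fusion keeps transcription of a set of progenitor genes high, among them Hoxa genes, Meis1 and Skida1, and is found in acute leukemias that often arise early in life. LSK cells are the fraction of bone marrow that holds the stem cells and multipotent progenitors. Neonatal and adult progenitors differ in proliferation and in the lineages they favor, and the comparison asks which parts of the response to the fusion depend on age.

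Levels are in CPM, counts per 1 M counts of a library scaled by TMM, a normalization that matches the bulk of genes between libraries. Fold changes are log2 values from edgeR with their standard error (SE). A gene is called where its Benjamini-Hochberg adjusted p, from edgeR's quasi-likelihood test over all 18931 genes, is under 0.05. Reads of Kmt2a and Mllt1 cannot separate the fusion from the endogenous genes, and their levels serve as a check on induction. Mllt1 stood at 29.8, 16.7, 27.7 and 13.6 CPM in P14_Control and at 89.3, 73.7, 63.8 and 39.8 CPM in P14_ME. It stood at 20.7, 20.3, 9.90 and 19.0 CPM in 8wk_Control and at 54.0, 54.8, 50.8 and 35.7 CPM in 8wk_ME, so ME and control libraries did not overlap at either age. Its ME effect was 1.60 log2 at P14 and 1.48 log2 at 8wk, a difference of -0.12 ± 0.40 log2 (SE; adjusted p = 0.934), whose sign turned when single libraries were left out. For Kmt2a the ME effect was 1.03 log2 at P14 and 0.73 log2 at 8wk, a difference of -0.30 ± 0.32 log2 (adjusted p = 0.749).

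The difference was called for 57 genes, 0.301% of those tested. The ME effect was higher at 8wk for 37 of them (0.195%) and lower at 8wk for 20 (0.106%). The median difference over all genes tested was -0.08 log2, and 8097 of the 18931 differences were positive. Each age's own ME effect was called for far more genes, 4168 (22%) at P14 and 5392 (28.5%) at 8wk. Of the genes called at both ages, 2519 moved in the same direction and 23 in opposite directions. The ME effects at the 2 ages, which share no library, had a Pearson r of 0.646 across genes, which are not independent replicates. When only the 16 libraries of these 4 groups were fitted, with 18118 genes passing the filter, edgeR called 0 genes, with 1921 at an unadjusted p under 0.05. Of the 57 genes, 56 were both tested there and of the same sign, which largely follows from the shared libraries.

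**Figure D1:**
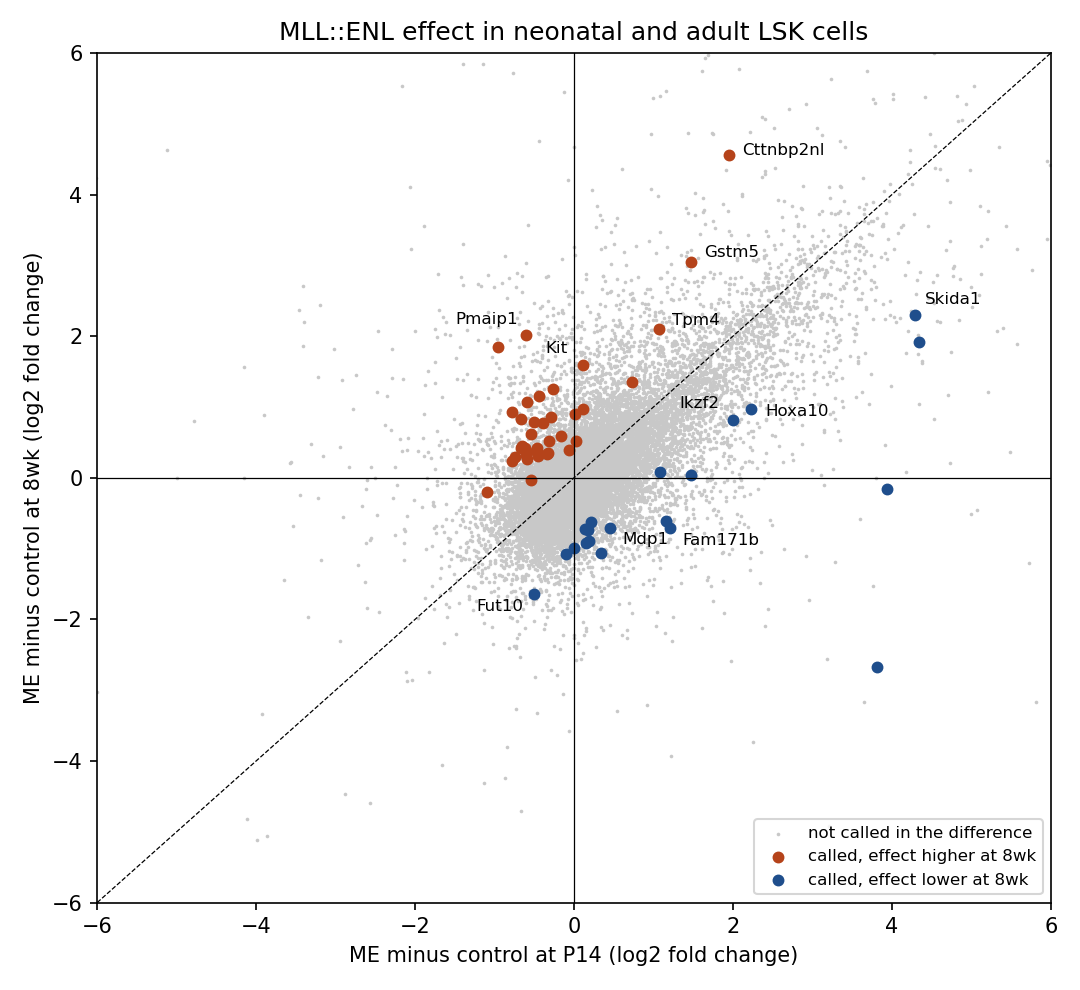
Each point is 1 of the genes tested, placed by its ME effect at P14 (horizontal, log2 fold change) and at 8wk (vertical, log2 fold change), with the dashed line marking equal effects. Colored points are the 57 genes whose effect differed between the ages, 37 above the line and 20 below it, and 34 genes not called lie outside the axes.

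Most of the 57 genes changed with age in ME cells more than in control cells. The 4 ME libraries of 8wk lay all above or all below those of P14 for 54 of the 57, while the control libraries of both ages were separate for 14. The comparison of 8wk_ME with P14_ME was called for 51 of them, against 11.4% of all genes, and that of 8wk_Control with P14_Control for 11, against 12.6% of all genes. These counts and comparisons share libraries with the difference that selected the 57 genes, so separation in ME cells partly follows from the selection. Overlap of libraries was not counted over all genes, and all of these values are given as description. Among the 37 genes with a higher difference, 13 fell at P14 and rose at 8wk, 14 rose at 8wk with no call at P14, 6 fell at P14 with no call at 8wk and 4 rose at both ages. Among the 20 with a lower difference, 8 fell at 8wk with no call at P14, 5 rose at P14 with no call at 8wk, 4 rose at both ages, 2 rose at P14 and fell at 8wk, and 1 fell at both.

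Libraries held 37.642 to 69.296 M counts (median 48.625 M). In 8wk_ME replicate 4, 8wk_ME replicate 1 and 8wk_Control replicate 1 the root mean square distance from the rest of the group was 0.520, 0.463 and 0.454 log2, against at most 0.39 in the other 13 libraries. Summed markers of mature neutrophils stood at 1243 CPM in 8wk_Control replicate 1 and at 266 to 322 CPM in the other 8wk controls, and at 394 CPM in 8wk_ME replicate 4 and at 1441 to 2129 CPM in the other 8wk_ME libraries. Skida1 and Hoxa10 of these libraries stood with their labelled groups, at 0.474 and 16.9 CPM in 8wk_Control replicate 1 and at 1.86 and 44.0 CPM in 8wk_ME replicate 4. Of the LSK markers Kit stood at 376 CPM or more in every library, Ly6a (Sca1) at 61.9 CPM or more and Cd34 at 820 CPM or more. Cd3e of T cells was at most 0.023 CPM and Ly6g of neutrophils at most 0.99 CPM. Other members of these marker lists reached higher levels. Summed T and NK cell markers were 216 to 465 CPM, and S100a8 of neutrophils reached 701 CPM in 8wk_ME replicate 1. Summed Y-linked genes exceeded 100 CPM in 1 of 4 libraries of each control group and in 2 of 4 of each ME group. Bulk counts cannot tell fewer cells of a type from less RNA per cell.

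Among known targets of MLL fusions, the response was larger in neonatal than in adult cells for Skida1 and Hoxa10. Both rose at both ages, but less at 8wk. Of 25 targets on the list, 23 passed the filter. Their median difference was -0.37 log2 (all genes -0.08), and 2 were lower (0.106% of all genes) and 0 higher (0.195%). A negative difference was found for 19 of the 23, while 8097 of all 18931 genes had a positive one. At P14, 14 of the 23 rose (12.7% of all genes did) and 0 fell, with a median of 0.90 log2. At 8wk, 12 rose (14.2% of all genes) and 0 fell, with a median of 0.57 log2. Without edgeR's adjustment 4 of the 23 were lower and 0 higher at p under 0.05, against 2202 of all 18931 genes in either direction. DESeq2 called 2 lower and 0 higher, against 89 and 209 of all 18931 genes.

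Skida1 (chromosome 2, 18040676 to 18049051, GRCm38), a nuclear protein of the SKI and DACH domain family named in the title of the series, stood at 11.1, 9.33, 5.62 and 5.80 CPM in P14_ME and at 2.37, 2.25, 1.66 and 1.86 CPM in 8wk_ME. It stood at 0.258, 0.299, 0.482 and 0.574 CPM in P14_Control and at 0.474, 0.550, 0.384 and 0.236 CPM in 8wk_Control. Every P14_ME library was above every 8wk_ME library, and the controls of both ages overlapped. The ME effect was 4.29 ± 0.31 log2 at P14 and 2.30 ± 0.30 log2 at 8wk (SE), a difference of -1.99 ± 0.41 log2 (adjusted p = 0.0376). The call was kept in 13 of 29 alternative analyses (adjusted p 0.00151 to 0.166) and the sign in all of them.

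Hoxa10 (chromosome 6, 52231197 to 52240854), a homeobox factor of the Hoxa cluster that favors progenitor growth, stood at 58.1, 70.6, 71.8 and 88.1 CPM in P14_ME and at 34.1, 43.0, 39.8 and 44.0 CPM in 8wk_ME. Its controls held 16.6, 17.8, 15.3 and 12.2 CPM at P14 and 16.9, 21.3, 24.6 and 19.5 CPM at 8wk. ME libraries lay above the controls at both ages, and all P14_ME libraries lay above all 8wk_ME libraries. The ME effect was 2.22 ± 0.16 log2 at P14 and 0.97 ± 0.15 log2 at 8wk, a difference of -1.26 ± 0.21 log2 (adjusted p = 0.0213), called in 24 of 29 alternatives (adjusted p 0.000112 to 0.0884). Of the 8 Hoxa genes tested, Hoxa10 was the 1 called (0.301% of all genes were). For Hoxa9, the cluster's best known leukemia gene, the ME effect was 0.79 log2 at P14 and 0.58 log2 at 8wk, a difference of -0.21 ± 0.15 log2 (adjusted p = 0.622). For Nkx2-3, another homeobox factor, the difference was -0.84 ± 0.37 log2 (adjusted p = 0.39) between effects of 4.73 and 3.89 log2. Meis1, a partner of Hoxa9, spread from 119 to 283 CPM in 8wk_ME, with a difference of -0.37 ± 0.23 log2 (adjusted p = 0.569).

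Ikzf2 (Helios), an IKAROS family factor of early lymphoid and stem cells, stood at 40.3, 43.2, 45.6 and 48.3 CPM in P14_ME and at 17.6, 18.7, 21.2 and 33.6 CPM in 8wk_ME. Its controls held 10.1 to 11.9 CPM at P14 and 12.0 to 13.7 CPM at 8wk. No groups of ME and control overlapped, and the highest 8wk_ME library was replicate 4. Ikzf2 rose by 2.00 ± 0.17 log2 at P14 and by 0.81 ± 0.17 log2 at 8wk, a difference of -1.19 ± 0.24 log2 (adjusted p = 0.0376). It was the 1 called gene of 19 lymphoid-primed progenitor genes (0.301% of all genes were called), whose median difference was -0.08 log2. The Ikzf2 call was kept in 13 of 29 alternatives. Ikzf1, the family's founding member, rose at both ages with a difference of -0.08 log2 (adjusted p = 0.913).

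**Figure D2:**
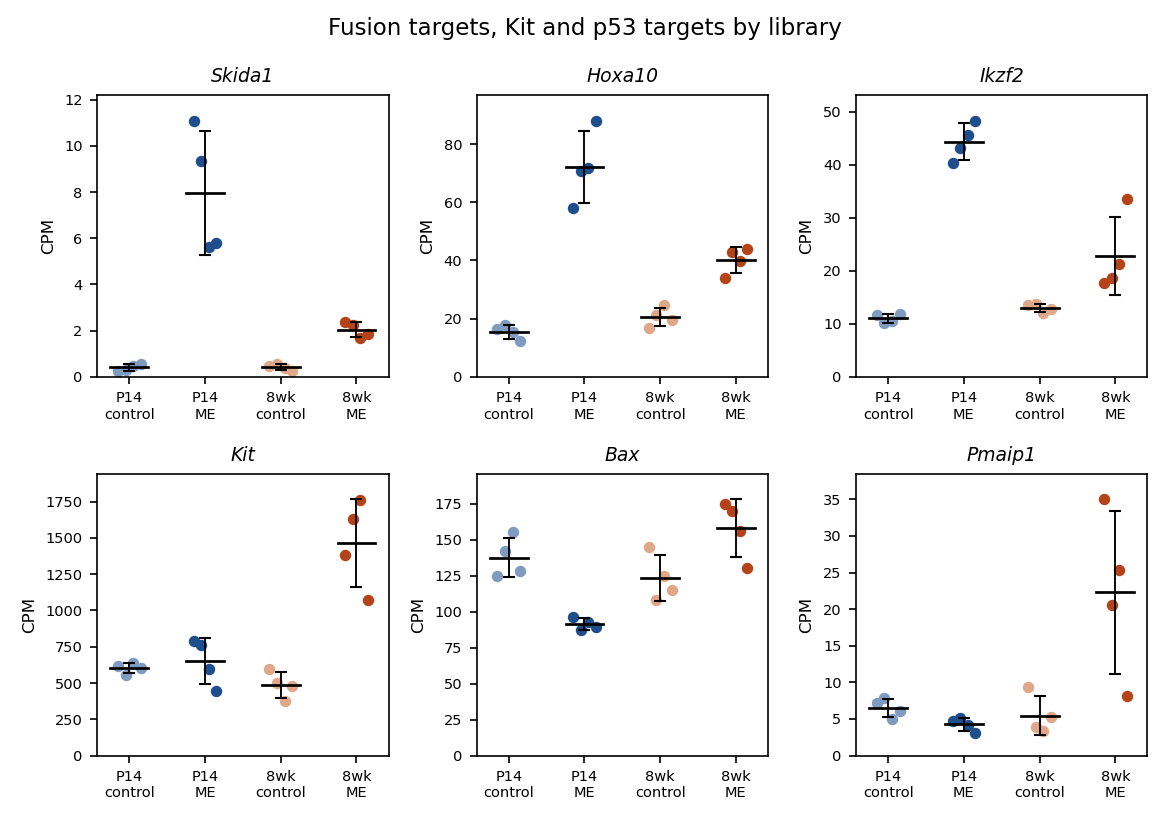
TMM-scaled CPM of Skida1, Hoxa10, Ikzf2, Kit, Bax and Pmaip1 in each of the 16 libraries (points), with bars for the group mean and SD (n = 4). Skida1, Hoxa10 and Ikzf2 are highest in P14_ME, and Kit, Bax and Pmaip1 have their highest mean in 8wk_ME.

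Kit (chromosome 5, 75574916 to 75656722), the stem cell factor receptor, responded to the fusion in adult cells with no call in neonatal cells. It stood at 1385, 1631, 1763 and 1075 CPM in 8wk_ME against 596, 500, 376 and 476 CPM in 8wk_Control, and at 788, 764, 599 and 447 CPM in P14_ME against 617, 553, 641 and 602 CPM in P14_Control. The 8wk groups did not overlap and the P14 groups did. Kit rose by 1.59 ± 0.17 log2 at 8wk, its effect at P14 was 0.11 ± 0.17 log2, and the difference was 1.48 ± 0.24 log2 (adjusted p = 0.0162). KIT protein was part of the sort, which preceded the culture. Kit was the 1 called gene among 20 stem cell markers (0.301% of all genes were called), whose median difference was -0.33 log2.

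Il1rl2 (chromosome 1, 40324610 to 40367562), the receptor subunit for IL-36, stood at 36.9, 27.8, 30.0 and 20.4 CPM in 8wk_ME and at 13.1, 12.0, 10.3 and 13.1 CPM in 8wk_Control. At P14 it stood at 13.2, 14.0, 12.0 and 9.99 CPM in ME cells and at 12.2, 15.3, 14.8 and 16.7 CPM in controls. The 8wk_ME libraries lay above all others, and the difference was 1.51 ± 0.23 log2 (adjusted p = 0.00819). Il1r2, a decoy receptor for IL-1 in the same stretch of chromosome 1, had a difference of 1.29 ± 0.27 log2 (adjusted p = 0.0376), with 6.07 ± 1.09 CPM in P14_ME and 11.2 ± 2.09 CPM in 8wk_ME (SD, n = 4).

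Lyn, a Src family kinase that acts downstream of KIT and Fc receptors, stood at 126, 138, 128 and 131 CPM in 8wk_ME against 96.4 to 104 CPM in 8wk_Control, and at 94.2 to 108 CPM in P14_ME against 105 to 112 CPM in P14_Control. Its difference was 0.46 ± 0.10 log2 (adjusted p = 0.0376), and it was the 1 called of 10 Src family kinases (0.301% of all genes were). The Lyn call was kept in 10 of 29 alternatives (adjusted p 0.000161 to 0.246). Fcer1g, the shared signaling chain of Fc receptors, stood at 183 to 224 CPM in 8wk_ME and at 85.0 to 131 CPM in all other libraries, with a difference of 0.89 ± 0.19 log2 (adjusted p = 0.0458). The Fcer1g call was kept in 13 of 29 alternatives. Cd44, an adhesion receptor for hyaluronan, fell at P14 by 0.31 log2 and rose at 8wk by 0.52 log2, a difference of 0.84 ± 0.15 log2 (adjusted p = 0.0213). Creb5, a leucine zipper factor, had a difference of 2.79 ± 0.49 log2 (adjusted p = 0.0213) at 0.30 to 3.60 CPM, which rests on lower counts.

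Glycolysis and hypoxia response genes held more called genes than any other of 42 gene lists. Glycolytic enzymes split glucose to pyruvate, and many of them, with Egln3, Ndrg1, Bnip3 and Car9, are classic targets of the hypoxia-inducible factors, which bind a core of ACGTG in DNA. All 26 genes of the list passed the filter. Of these, 9 had a higher difference (0.195% of all genes) and 0 a lower one (0.106%). A positive difference was found for 25 of 26 (8097 of all 18931 genes), with a median of 0.83 log2 (all genes -0.08). At P14, 13 of the 26 fell (9.35% of all genes did) and 0 rose, with a median of -0.38 log2. At 8wk, 14 rose (14.2% of all genes) and 1 fell (14.3%), with a median of 0.42 log2.

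The windows before the listed starts of Aldoa, Egln3 and Hk2 are shown because these called genes hold the ACGTG core there. The sequences are from RefSeq on GRCm38.p6, 250 bases before a listed start, read 5′ to 3′ on the gene's strand. ACGTG or its reverse complement CACGT is in capitals. They lie at chr7:126799255-126799504 (Aldoa), chr12:54203875-54204124 (Egln3) and chr6:82774455-82774704 (Hk2), all on the minus strand. Windows without the core or overlapping an annotated exon were passed over. Aldoa has 3 listed starts, of which this is the first that remained, and its window lies inside the gene's annotated span.
Aldoa: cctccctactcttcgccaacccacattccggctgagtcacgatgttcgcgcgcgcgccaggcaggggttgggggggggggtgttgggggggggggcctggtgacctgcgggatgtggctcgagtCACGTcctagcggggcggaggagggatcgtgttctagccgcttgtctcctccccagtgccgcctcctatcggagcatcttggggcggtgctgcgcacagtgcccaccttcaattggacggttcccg
Egln3: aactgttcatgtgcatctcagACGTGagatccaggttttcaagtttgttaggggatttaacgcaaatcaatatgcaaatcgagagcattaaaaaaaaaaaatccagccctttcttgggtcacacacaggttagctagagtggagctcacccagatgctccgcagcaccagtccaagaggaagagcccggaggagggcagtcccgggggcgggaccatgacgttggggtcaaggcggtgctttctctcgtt
Hk2: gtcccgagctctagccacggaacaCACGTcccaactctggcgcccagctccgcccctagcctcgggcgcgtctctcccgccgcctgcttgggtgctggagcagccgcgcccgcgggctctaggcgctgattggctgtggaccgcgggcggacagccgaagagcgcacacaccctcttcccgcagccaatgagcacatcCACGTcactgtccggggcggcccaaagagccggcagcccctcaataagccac
The match begins 126 bases before the start in Aldoa, 229 in Egln3, and 226 and 52 in Hk2. With both strands searched, ACGTG was present in 14 of 23 list members with a window (60.9%) and in 18.5% of all 27025 genes with a window. In these counts a gene held a motif if any of its listed windows did. Genes with more listed starts thus had more chances of a match, and the shares were not matched for this. It was present in 4 of 8 called members (50%), the fourth being Pkm, and in 10 of 15 members not called (66.7%). The related E-box CACGTG, which contains ACGTG, was present in 2 of the 23 (8.7%) and in 6.86% of all windows. A match is a description of the letters and not a bound site.

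Along the pathway the called members were hexokinase Hk2, phosphoglucose isomerase Gpi1, phosphofructokinase Pfkp, aldolase Aldoa, triosephosphate isomerase Tpi1, enolase Eno1 and pyruvate kinase Pkm. Aldoa (chromosome 7, 126795234 to 126800751) stood at 877, 843, 748 and 758 CPM in P14_ME against 1073, 1123, 1263 and 1238 CPM in P14_Control. At 8wk it stood at 2412, 1953, 1525 and 1257 CPM in ME cells against 1308, 955, 1080 and 1315 CPM in controls. The P14 groups did not overlap, and the 8wk groups overlapped through 8wk_ME replicate 4. Aldoa fell by 0.54 ± 0.14 log2 at P14 and rose by 0.62 ± 0.14 log2 at 8wk, a difference of 1.16 ± 0.20 log2 (adjusted p = 0.0213) that was called in 22 of 29 alternatives (adjusted p 0.000112 to 0.0892).

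Eno1 had the same form, with 854 to 1166 CPM in P14_ME, 1386 to 1863 CPM in P14_Control, 1474 to 2516 CPM in 8wk_ME and 1207 to 1791 CPM in 8wk_Control. Its difference was 1.03 ± 0.21 log2 (adjusted p = 0.0376). Eno1b, a near-identical copy that can share reads with Eno1, had 4.11 to 20.2 CPM in P14_ME and 17.3 to 34.9 CPM in 8wk_ME. Gpi1 fell at P14 by 0.46 log2 and rose at 8wk by 0.42 log2, a difference of 0.88 ± 0.19 log2 (adjusted p = 0.0381).

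Hk2, Pfkp, Tpi1 and Pkm fell at P14 and were not called at 8wk. Pfkp stood at 112, 106, 93.2 and 78.0 CPM in P14_ME against 159 to 170 CPM in P14_Control, and at 303, 238, 206 and 174 CPM in 8wk_ME against 172 to 231 CPM in 8wk_Control. The P14 groups were separate and the 8wk groups overlapped, with a difference of 1.04 ± 0.20 log2 (adjusted p = 0.0376). For Pkm the difference was 0.93 ± 0.19 log2 (adjusted p = 0.0376), for Tpi1 0.86 ± 0.18 log2 (adjusted p = 0.0376) and for Hk2 1.03 ± 0.22 log2 (adjusted p = 0.046).

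The enzymes between these steps had positive differences that missed the threshold, 0.74 ± 0.19 log2 for Pgam1 (adjusted p = 0.0925), 0.78 ± 0.20 log2 for Gapdh (adjusted p = 0.11) and 0.61 ± 0.20 log2 for Pgk1 (adjusted p = 0.208). All 3 fell at P14, and none was called at 8wk. Lactate dehydrogenase Ldha had a difference of 0.47 ± 0.23 log2 (adjusted p = 0.43). Slc2a3, a glucose transporter, fell at both ages by similar amounts, 0.72 log2 at P14 and 0.70 log2 at 8wk, with a difference of 0.02 ± 0.17 log2 (adjusted p = 0.972). The other transporter, Slc2a1, rose at 8wk by 0.78 log2, and its difference was 0.99 ± 0.25 log2 (adjusted p = 0.104).

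**Figure D3:**
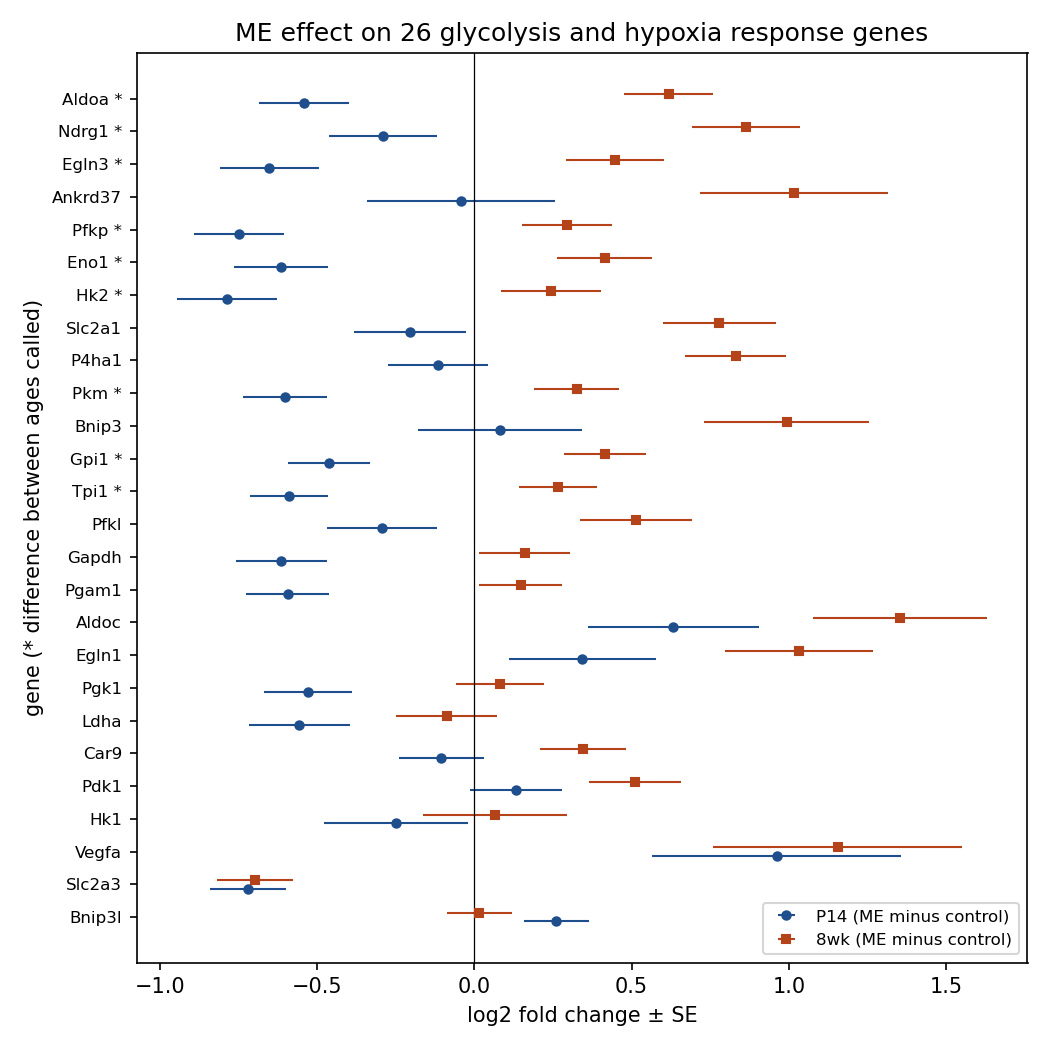
ME effect (log2 fold change, bars are SE) at P14 (circles) and at 8wk (squares) for the 26 glycolysis and hypoxia response genes, ordered by the difference, with an asterisk at the 9 called. The 8wk effect lies to the right of the P14 effect for 25 of the 26, and Bnip3l is the exception.

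The hypoxia response genes outside the pathway gave 2 more calls. Egln3, a prolyl hydroxylase that marks HIF-alpha for destruction and is itself induced by HIF, stood at 60.3, 58.0, 47.8 and 50.4 CPM in P14_ME against 82.5 to 89.1 CPM in P14_Control. At 8wk it stood at 189, 165, 99.2 and 107 CPM in ME cells against 85.1 to 129 CPM in controls. The difference was 1.099 ± 0.22 log2 (adjusted p = 0.0376). Ndrg1, a stress-induced cytoplasmic protein, stood at 98.0 to 131 CPM in 8wk_ME, 49.9 to 85.5 CPM in 8wk_Control, 11.4 to 17.7 CPM in P14_ME and 16.2 to 17.9 CPM in P14_Control. Its difference was 1.16 ± 0.24 log2 (adjusted p = 0.0376), and it also rose with age in the controls, by 1.87 log2 (adjusted p = 1.3e-06). Hif1a itself stood at 127 to 166 CPM in P14_ME and at 130 to 146 CPM in 8wk_ME, with a difference of 0.02 log2 (adjusted p = 0.965).

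Ak4, a mitochondrial adenylate kinase that was not on the list, had one of the 3 lowest adjusted p-values. It stood at 39.7, 42.5, 46.2 and 38.4 CPM in P14_ME against 59.9, 66.3, 65.4 and 72.4 CPM in P14_Control. At 8wk it stood at 132, 104, 80.8 and 115 CPM in ME cells against 76.8, 72.2, 83.2 and 91.7 CPM in controls. The P14 groups were separate, and the 8wk groups overlapped through 8wk_ME replicate 3. The difference was 1.08 ± 0.17 log2 (adjusted p = 0.00819). Pgm1, a phosphoglucomutase that links glycogen to glycolysis, fell at P14 by 0.46 log2 and rose at 8wk by 0.36 log2, a difference of 0.82 ± 0.16 log2 (adjusted p = 0.0376).

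The summed level of the 26 genes was 9873 to 12291 CPM in P14_ME, 14287 to 17706 CPM in P14_Control, 15146 to 24134 CPM in 8wk_ME and 14316 to 19039 CPM in 8wk_Control. The P14 groups did not overlap and the 8wk groups did. Within 8wk_ME the sum was 24134, 19627, 17029 and 15146 CPM in replicates 1 to 4, and summed neutrophil markers were 2129, 1868, 1441 and 394 CPM in the same libraries. The part of myeloid cells in the glycolytic difference was not tested. Without the 3 libraries farthest from their groups, a choice made after seeing the data, 9 of the 26 were again higher, with a median of 0.78 log2. Without 8wk_ME replicate 4 there were 13, without P14_Control replicate 2 there were 4 and without 8wk_ME replicate 3 there were 2. There was 1 without 8wk_ME replicate 1, P14_ME replicate 2, P14_Control replicate 3 or P14_Control replicate 4, and without 8wk_ME replicate 2, 8wk_Control replicate 2, P14_ME replicate 3 or P14_ME replicate 4 there were 0, as in the fit of only the 16 libraries. The median stayed between 0.69 and 0.96 log2 over all alternatives.

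**Figure D4:**
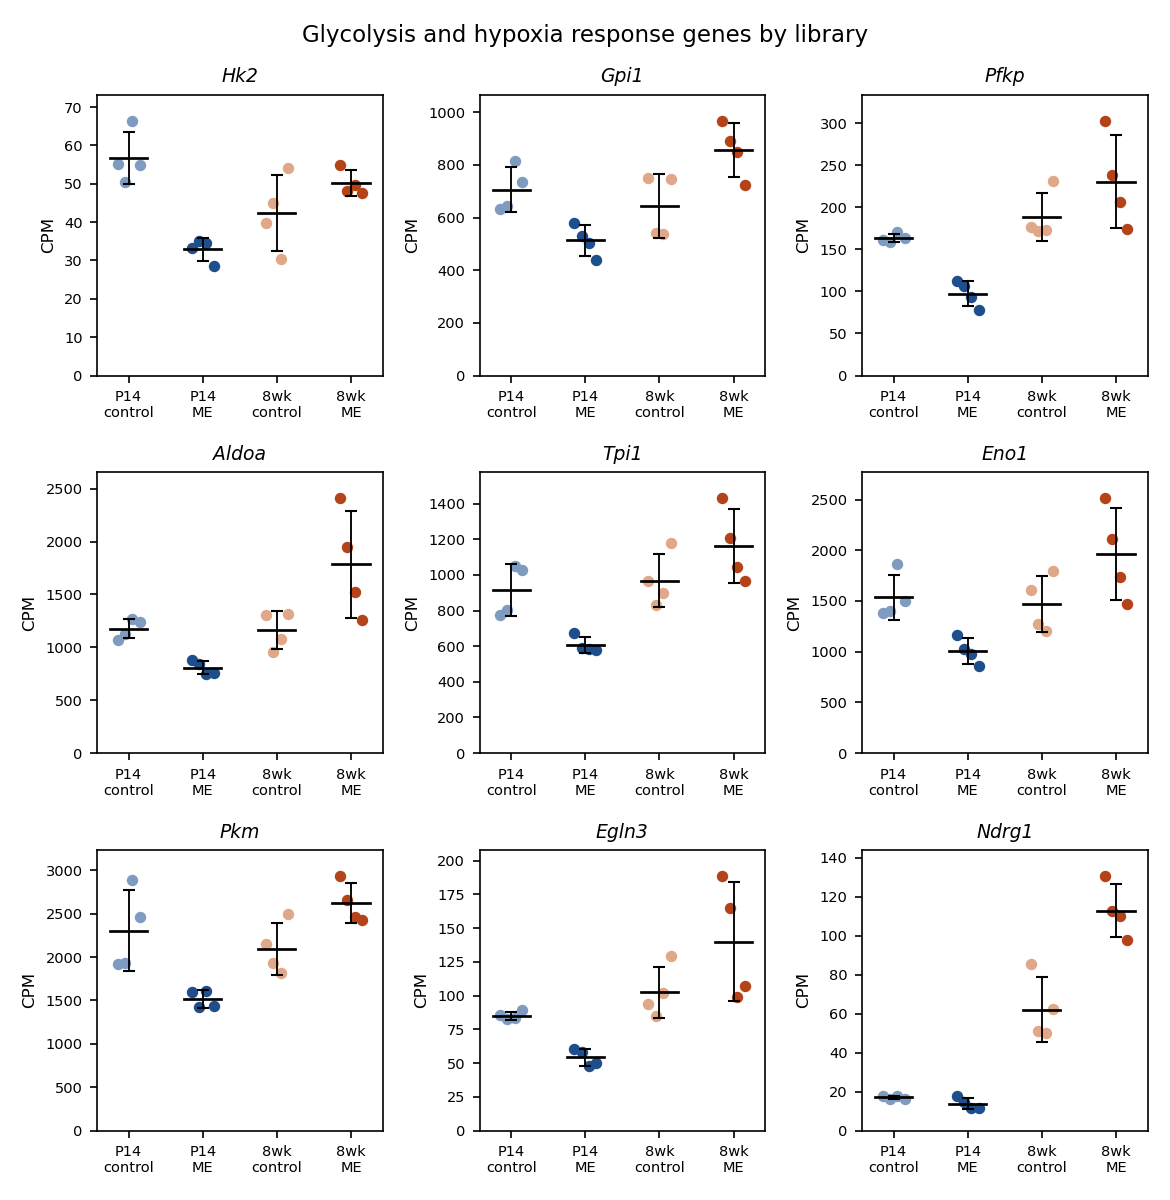
TMM-scaled CPM of glycolysis and hypoxia response genes in each of the 16 libraries (points), with bars for the group mean and SD (n = 4). P14_ME has the lowest mean in each panel, and 8wk_ME overlaps 8wk_Control in every panel except Ndrg1.

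Among p53 targets, Bax and Pmaip1 had a higher ME effect in adult than in neonatal cells. Bax (chromosome 7, 45461697 to 45466898), which opens the outer mitochondrial membrane in apoptosis, stood at 96.2, 87.5, 92.8 and 89.1 CPM in P14_ME against 125, 142, 155 and 128 CPM in P14_Control. At 8wk it stood at 175, 170, 156 and 130 CPM in ME cells against 145, 108, 125 and 115 CPM in controls. The P14 groups were separate and the 8wk groups overlapped. Bax fell by 0.59 ± 0.10 log2 at P14 and rose by 0.36 ± 0.10 log2 at 8wk, a difference of 0.95 ± 0.15 log2 (adjusted p = 0.00819), and was called in 27 of 29 alternatives (adjusted p 3.59e-06 to 0.0718).

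Pmaip1 (Noxa), a BH3-only protein that disarms anti-apoptotic partners, stood at 35.0, 20.6, 25.4 and 8.13 CPM in 8wk_ME and at 9.31, 3.96, 3.32 and 5.28 CPM in 8wk_Control. In P14 libraries it stood at 3.11 to 5.19 CPM in ME cells and at 5.00 to 7.88 CPM in controls. The difference was 2.62 ± 0.52 log2 (adjusted p = 0.0376), called in 12 of 29 alternatives. Cdkn1a (p21), the cell cycle inhibitor most used as a p53 readout, had a difference of 2.79 ± 0.61 log2 that missed the threshold (adjusted p = 0.051), with 58.2 to 220 CPM in 8wk_ME, 14.4 to 65.1 CPM in 8wk_Control and 15.3 to 37.7 CPM in P14_ME. The highest control was 8wk_Control replicate 1 and the lowest 8wk_ME library was replicate 4.

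All 22 p53 targets were tested. Of these 2 were higher (0.195% of all genes) and 0 lower (0.106%) in the difference, with a median of 0.54 log2. A positive difference was found for 18 of 22, against 8097 of all 18931 genes. At P14, 2 rose and 4 fell (12.7% and 9.35% of all genes). At 8wk, 12 rose (14.2% of all genes) and 1 fell (14.3%). Mdm2, the feedback inhibitor of p53, had a difference of 0.22 ± 0.12 log2 (adjusted p = 0.486), and Bbc3 (Puma) rose at both ages with a difference of -0.11 ± 0.60 log2. Over the single left-out libraries 1 to 8 of the 22 p53 target genes were higher, with 8 without 8wk_Control replicate 1 and 5 without 8wk_ME replicate 4. In the fit of only the 16 libraries 0 were. Ripk3, a kinase of necroptosis, fell at P14 by 0.54 ± 0.07 log2, its effect at 8wk was -0.03 ± 0.07 log2, and the difference was 0.51 ± 0.10 log2 (adjusted p = 0.0376). From P14 to 8wk Ripk3 changed by -0.40 log2 in controls (adjusted p = 0.00159) and by 0.11 log2 in ME cells (adjusted p = 0.397).

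The neutrophil, inflammatory and granulocyte-monocyte progenitor lists had the highest median differences of the 42 lists, with few or no calls. Of 20 mature neutrophil markers, 2 were higher (0.195% of all genes), Ncf1 and Il1r2, with a median difference of 2.19 log2. Ncf1, a subunit of the phagocyte oxidase, stood at 231, 153, 156 and 88.3 CPM in 8wk_ME against 56.1 to 84.6 CPM in 8wk_Control, and at 58.0 to 81.0 CPM in P14_ME against 92.5 to 106 CPM in P14_Control. The 8wk groups were separate, as were the P14 groups in the other direction, although the P14 effect of -0.44 ± 0.21 log2 was not called. The difference was 1.59 ± 0.30 log2 (adjusted p = 0.0326).

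The granule and alarmin genes of the same list did not pass. S100a8 spread from 18.6 to 701 CPM in 8wk_ME and from 8.45 to 337 CPM in 8wk_Control, and its difference was 3.81 ± 2.12 log2 (adjusted p = 0.512). Among 19 granulocyte-monocyte progenitor genes 0 were called by edgeR, 2 were higher at an unadjusted p under 0.05 and DESeq2 called 1, with a median of 1.00 log2. Among 23 monocyte and macrophage markers edgeR called 0, 2 were higher at an unadjusted p under 0.05 and DESeq2 called 1 lower, with a median of 0.50 log2. Over all 18931 genes, 2202 were at an unadjusted p under 0.05 in either direction, and DESeq2 called 209 higher and 89 lower. Without the 3 farthest libraries the median of the mature neutrophil markers was 5.54 log2 with 7 called, and that of the monocyte and macrophage markers 1.92 log2 with 4 called.

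The list of inflammatory cytokines and NF-kB feedback genes had a median difference of 1.48 log2, with 28 of 31 positive (8097 of all 18931 genes). At 8wk, 24 of the 31 rose (14.2% of all genes) and 0 fell (14.3%), with a median of 2.00 log2. At P14, 1 rose (Tnfaip2; 12.7% of all genes) and 1 fell (Ccl3; 9.35%), with a median of 0.47 log2. The difference itself was called for 0 of the 31 by edgeR and limma-voom and for 6 by DESeq2, and 14 were higher at an unadjusted p under 0.05. DESeq2 called 209 higher and 89 lower of all 18931 genes, and 2202 were at an unadjusted p under 0.05 in either direction. Ccl4, a chemokine, had a mean of 38.2 CPM in 8wk_ME, 5.46 CPM in 8wk_Control, 5.36 CPM in P14_ME and 4.83 CPM in P14_Control, and a difference of 2.65 ± 0.60 log2 (adjusted p = 0.0612). Tnfaip3 (A20), a brake on NF-kB, had a difference of 1.70 ± 0.42 log2 (adjusted p = 0.0858). Summed levels were 715 to 1998 CPM in 8wk_ME and 491 to 738 CPM in the other groups, so that 1 library of P14_ME overlapped the lowest of 8wk_ME, replicate 4. The part of myeloid cells in these values was not tested.

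Of 25 genes of the ATF4 response to amino acid shortage, 24 had a positive difference (8097 of all 18931 genes), with a median of 0.81 log2. By edgeR 0 of the 25 were called, by DESeq2 1, and 12 were higher at an unadjusted p under 0.05. Over all 18931 genes, DESeq2 called 209 higher and 89 lower, and 2202 were at an unadjusted p under 0.05 in either direction. At 8wk, 10 rose (14.2% of all genes) and 1 fell (14.3%), and at P14, 2 rose (12.7%) and 3 fell (9.35%). Their summed level was 5361, 3632, 3439 and 2155 CPM in 8wk_ME replicates 1 to 4 and 2954 to 3414 CPM in 8wk_Control, so that replicate 4 lay below every control and the other 3 above. Summed neutrophil markers had the same order in 8wk_ME, 2129, 1868, 1441 and 394 CPM, and the part of myeloid cells in these values was not tested. Sesn2, an inhibitor of mTORC1 that is a target of both p53 and ATF4, rose at 8wk by 0.93 log2, and its difference was 1.08 ± 0.29 log2 (adjusted p = 0.126). Without the 3 farthest libraries 9 of the 25 were higher.

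B-lineage genes had the lowest median of the lists with at least 10 tested members, -1.04 log2. Negative differences were found for 24 of 26, while 8097 of all 18931 genes had a positive one. At P14, 19 of the 26 rose (12.7% of all genes), with a median of 2.57 log2, and at 8wk, 7 rose (14.2%), with a median of 1.59 log2. The difference was called for 0 of the 26 by edgeR, DESeq2 and limma-voom. At an unadjusted p under 0.05, 1 was lower, against 2202 of all 18931 genes in either direction. Cd79a, a chain of the B cell receptor complex, spread from 0.207 to 76.8 CPM in P14_ME and from 10.3 to 18.8 CPM in 8wk_ME, and its difference was -2.51 ± 1.44 log2 (adjusted p = 0.526). Rag2, a subunit of the V(D)J recombinase, rose at both ages, by 1.85 log2 at P14 and by 0.99 log2 at 8wk, a difference of -0.86 ± 0.40 log2 (adjusted p = 0.406). At these errors a smaller B-lineage response in adult cells was not detectable.

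A further set of genes rose at both ages but more in adult cells. Cttnbp2nl, a regulator of the STRIPAK phosphatase complex, stood at 29.6, 37.8, 43.1 and 14.1 CPM in 8wk_ME and at 9.41, 8.66, 3.53 and 4.21 CPM in P14_ME. Its controls held 0.681 to 2.00 CPM at both ages, below every ME library. It rose by 1.96 ± 0.38 log2 at P14 and by 4.56 ± 0.42 log2 at 8wk, a difference of 2.601 ± 0.53 log2 (adjusted p = 0.0376). The call was kept in 12 of 29 alternatives.

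Gstm5, a glutathione transferase, stood at 405, 319, 282 and 147 CPM in 8wk_ME and at 100, 120, 79.6 and 77.5 CPM in P14_ME, with controls at 28.9 to 38.7 CPM. It rose by 1.48 ± 0.22 log2 at P14 and by 3.05 ± 0.23 log2 at 8wk, a difference of 1.58 ± 0.30 log2 (adjusted p = 0.0335). Related Gstm genes can share its reads. Tpm4, a tropomyosin of the actin cytoskeleton, stood at 264, 295, 279 and 214 CPM in 8wk_ME and at 154, 173, 143 and 130 CPM in P14_ME, with a difference of 1.03 ± 0.19 log2 (adjusted p = 0.0222). For Wdfy1, an endosomal adaptor of Toll-like receptors, the difference was 0.63 ± 0.13 log2 (adjusted p = 0.0376). In all 4 genes the ME libraries lay above the controls at both ages, and every 8wk_ME library lay above every P14_ME library.

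Spint1, Pald1 and Rasgef1b, 3 other genes of the higher group, fell in neonatal ME cells. Spint1, a membrane inhibitor of serine proteases, stood at 10.4, 9.91, 9.84 and 11.5 CPM in 8wk_ME against 4.15 to 6.37 CPM in 8wk_Control, and at 3.62 to 6.75 CPM in P14_ME against 6.02 to 11.2 CPM in P14_Control. Its difference was 1.71 ± 0.35 log2 (adjusted p = 0.0376). Pald1, a phosphatase-like protein, had a difference of 1.495 ± 0.29 log2 (adjusted p = 0.0376) at 3.93 to 11.1 CPM. From P14 to 8wk Pald1 changed by -0.985 log2 in controls (adjusted p = 0.00454) and by 0.51 log2 in ME cells (adjusted p = 0.119). Rasgef1b, an exchange factor for Rap GTPases, fell at P14 by 1.1 ± 0.13 log2, its effect at 8wk was -0.20 ± 0.13 log2, and the difference was 0.90 ± 0.18 log2 (adjusted p = 0.0376). Upp1, a uridine phosphorylase, stood at 35.1, 26.5, 16.4 and 14.3 CPM in 8wk_ME and at 2.37 to 4.53 CPM in P14_ME, with a difference of 1.66 ± 0.35 log2 (adjusted p = 0.0396). It rose at 8wk by 1.07 log2, and its P14 effect of -0.59 log2 was not called (adjusted p = 0.0964). Its controls stood at 4.00 to 5.93 CPM at P14 and at 7.29 to 13.4 CPM at 8wk and did not overlap.

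Among genes with a lower difference, 5 rose in neonatal ME cells with no call in adult ones. St3gal6, a sialyltransferase that builds selectin ligands, stood at 32.8, 28.3, 27.0 and 33.8 CPM in P14_ME and at 9.22, 10.9, 9.18 and 14.7 CPM in P14_Control. At 8wk it stood at 16.1, 15.6, 13.9 and 10.3 CPM in ME cells and at 15.8, 11.2, 15.5 and 12.0 CPM in controls. The P14 groups were separate and the 8wk groups overlapped, with a difference of -1.44 ± 0.26 log2 (adjusted p = 0.0245). Retreg1, a receptor for autophagy of the endoplasmic reticulum, stood at 82.0 to 109 CPM in P14_ME against 43.5 to 52.4 CPM in P14_Control. At 8wk it stood at 65.8 to 102 CPM in ME cells and at 67.7 to 87.0 CPM in controls. Its difference was -0.996 ± 0.21 log2 (adjusted p = 0.0376). From P14 to 8wk it changed by 0.69 log2 in controls (adjusted p = 0.0047) and by -0.31 log2 in ME cells (adjusted p = 0.195).

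Reep1, which shapes the endoplasmic reticulum, had a difference of -1.76 ± 0.37 log2 (adjusted p = 0.0376), and Fam171b one of -1.92 ± 0.42 log2 (adjusted p = 0.046), both at under 10 CPM. Gfra4, a receptor subunit of the GDNF family, had one of -4.09 ± 0.82 log2 (adjusted p = 0.0376) at no more than 1.84 CPM. Reep1, Retreg1, Ripk3 and other genes named here outside the rule for named genes were chosen after their values were seen.

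In adult ME cells, 8 genes of the lower group fell with no call in neonatal ones. Selenow, a small selenoprotein, stood at 146, 140, 136 and 145 CPM in 8wk_ME against 173, 286, 320 and 274 CPM in 8wk_Control. In P14_ME it stood at 227, 217, 215 and 277 CPM against 207, 225, 219 and 170 CPM in P14_Control. The 8wk groups were separate, with 8wk_Control replicate 1 the lowest control. Selenow fell by 0.90 ± 0.14 log2 at 8wk, and its difference was -1.08 ± 0.19 log2 (adjusted p = 0.0213). Zfp113, a zinc finger protein, stood at 15.2 to 23.3 CPM in 8wk_ME and at 26.7 to 34.3 CPM in all other libraries, with a difference of -0.83 ± 0.15 log2 (adjusted p = 0.0285). Uqcc3, an assembly factor of respiratory complex III, had a difference of -1.07 ± 0.23 log2 (adjusted p = 0.0376) and Mettl26 one of -1.002 ± 0.21 log2 (adjusted p = 0.0396). Their calls were kept in 11 and 10 of 29 alternatives.

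Mdp1, a phosphatase of the HAD family, rose by 0.45 ± 0.15 log2 at P14 and fell by 0.71 ± 0.16 log2 at 8wk. It stood at 37.4, 44.1, 42.4 and 47.5 CPM in P14_ME against 31.2, 34.7, 26.5 and 33.1 CPM in P14_Control, and at 26.2, 27.3, 26.1 and 29.6 CPM in 8wk_ME against 28.3, 43.5, 58.5 and 47.7 CPM in 8wk_Control. The P14 groups were separate, the 8wk groups overlapped through 8wk_Control replicate 1, and the difference was -1.15 ± 0.22 log2 (adjusted p = 0.0326). Fut10, a fucosyltransferase, fell at both ages, by 0.50 log2 at P14 and by 1.64 log2 at 8wk, a difference of -1.14 ± 0.24 log2 (adjusted p = 0.0376). Its highest 8wk_ME library was replicate 4 at 23.3 CPM, against 13.0 to 13.8 CPM in the other 3.

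Type I interferon, cell cycle and Myc and ribosome biogenesis genes moved at both ages, with 0 called in the difference. Of 36 type I interferon response genes, 25 rose at P14 (12.7% of all genes) and 30 at 8wk (14.2%), with a median difference of -0.05 log2, 3 at an unadjusted p under 0.05 and 0 called by edgeR or DESeq2. Of 34 cell cycle genes, 20 fell at P14 (9.35% of all genes) and 17 at 8wk (14.3%), while 1 rose at each age (12.7% and 14.2%), with a median difference of 0.07 log2, 1 at an unadjusted p under 0.05 and 0 called by edgeR or DESeq2. Of 26 Myc and ribosome biogenesis genes, 18 fell at P14 and 15 at 8wk (9.35% and 14.3% of all genes), while 3 and 4 rose (12.7% and 14.2%), with a median difference of 0.00 log2, 8 at an unadjusted p under 0.05 and 0 called by edgeR or DESeq2. Over all 18931 genes, 2202 were at an unadjusted p under 0.05 in either direction. A p that misses the threshold does not show that the effects were equal.

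**Figure D5:**
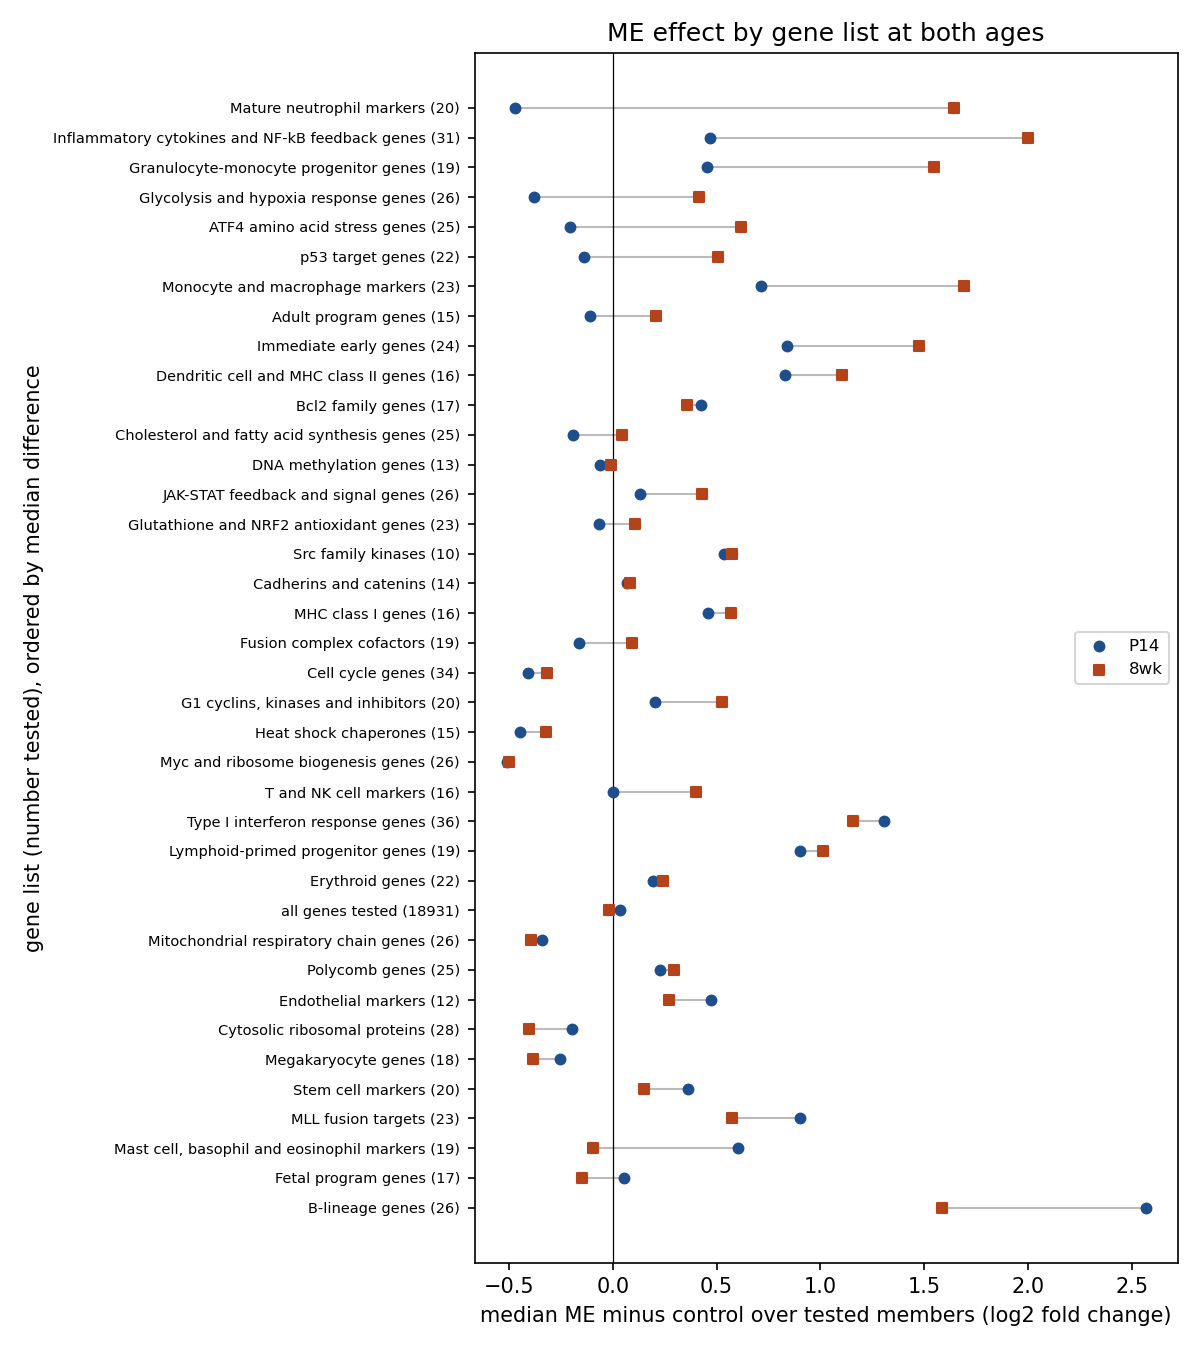
Median ME effect (log2 fold change) at P14 (circles) and at 8wk (squares) over the tested members of each gene list with at least 10 of them, ordered by the median difference. Neutrophil, inflammatory and granulocyte-monocyte progenitor lists have the largest positive median differences, and B-lineage genes the largest negative one.

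Median transcript GC content was 51.1% for the 37 higher genes, 48.8% for the 20 lower ones and 49.2% for all genes tested. The median SE of the difference was 0.35 log2 over all genes and 0.21 log2 over the called ones, and called differences ranged from 1.38-fold up. Of the 57 called genes, 52 reached 5 CPM in their highest group. The fit without 8wk_Control replicate 1 called 369 genes and that without 8wk_ME replicate 4 called 224, and each held all 57. Leaving out any 1 of the other 14 libraries gave 4 to 71 calls.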

How the data were processed

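Per the labels' protocols, total RNA of the cells went through an RNeasy Plus kit and then a Clontech SMART-type library kit. The deposited values are raw counts per Ensembl gene, made by the authors with STAR 2.7.9a on GRCm38 and featureCounts 2.0.3, per the submitters' processing notes. Which annotation release and strand setting were used is not given in the sources used here, nor are filters, so overlapping genes and near-identical copies are uncertain. The table has 55774 lines, and 168 identifiers repeated with identical values were used once. Of counts from 1 to 20, a median of 62.5% were even in the 16 P14 and 8wk libraries. Counting each mate of a read pair can raise that share, but the cause was not tested. If mates were counted singly, counts stand for fewer independent fragments than they appear.

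Groups were taken from sample titles. Genes were kept by filterByExpr (minimum count 10), and all 24 libraries were fitted in edgeR 4.0.16 (R 4.3.3) by robust quasi-likelihood with TMM factors and 1 mean per group. The difference and both ME effects are contrasts of that fit, and adjusted p-values run over all genes within a contrast. The fit was tested on simulated data of 18659 genes, where it called 24 of 98 genes with a 2-fold and 65 of 100 with a 4-fold difference and 3 of 18461 unchanged genes. The simulated counts were drawn independently around 1 mean per group, with no outlying libraries and no variation shared between genes. The number of false calls therefore does not carry over to the real libraries. Coordinates and GC content are from GENCODE M21, and promoter windows from RefSeq (GRCm38.p6). Alternatives used DESeq2 1.42.0, limma-voom (limma 3.58.1), other scaling, filters, covariates and left-out libraries.

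The contrast, the 42 gene lists and the rule for named genes were chosen with earlier results of these data known. Kmt2a, Mllt1 and Skida1 were named whatever their values. Among called genes with a mean of at least 5 CPM in the highest group, clone-type symbols left out, it named the 10 with the largest difference in each direction, the 2 with the smallest adjusted p in each class of age pattern, and, from each list with a called gene, up to 4 by smallest adjusted p.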

Additional observations from a re-analysis of the deposited data

Results flagged for a closer look

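A test of the difference between the ages flagged 37 genes with a higher and 20 with a lower ME effect at 8wk, 32 of them named. Positive log2 differences were 2.62 for Pmaip1, 2.601 for Cttnbp2nl, 1.71 for Spint1, 1.66 for Upp1, 1.59 for Ncf1, 1.58 for Gstm5, 1.51 for Il1rl2, 1.495 for Pald1, 1.48 for Kit and 1.29 for Il1r2. They were 1.16 for Aldoa, 1.099 for Egln3, 1.08 for Ak4, 1.04 for Pfkp, 1.03 for Tpm4, 0.95 for Bax, 0.93 for Pkm, 0.90 for Rasgef1b, 0.89 for Fcer1g and 0.46 for Lyn. Negative log2 differences were -1.99 for Skida1, -1.92 for Fam171b, -1.44 for St3gal6, -1.26 for Hoxa10, -1.19 for Ikzf2, -1.15 for Mdp1, -1.14 for Fut10, -1.08 for Selenow, -1.07 for Uqcc3, -1.002 for Mettl26, -0.996 for Retreg1 and -0.83 for Zfp113.

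In 12 of 184 groups of 4 libraries, 1 library stood far from the other 3, and chance flags about 1 in 20 such groups. In 8wk_Control replicate 1 summed markers of neutrophils (1243 CPM), monocytes and macrophages (1499 CPM) and granulocyte-monocyte progenitor genes (6197 CPM) were the highest of the group, and Fut10 (33.8 CPM) was the lowest. In 8wk_ME replicate 4 granulocyte-monocyte progenitor genes (3683 CPM) were the lowest and Fut10 (23.3 CPM) the highest. Single values stood apart for Gstm5 in P14_Control replicate 3 (36.3 CPM), Mllt1 in 8wk_Control replicate 3 (9.90 CPM), Pald1 in P14_ME replicate 1 (7.15 CPM) and Pfkp in 8wk_Control replicate 4 (231 CPM). Summed T and NK cell markers were highest in P14_ME replicate 3 (324 CPM), and summed stromal markers lowest in P14_ME replicate 4 (34.6 CPM).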

How the results depend on the processing

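The sign of the 32 called named genes was kept in all 29 alternatives, and 8 of them (Ak4, Aldoa, Bax, Hoxa10, Il1rl2, Kit, Selenow and St3gal6) kept their call in at least 20. The fewest was 10, for Lyn and Mettl26. These genes were selected by calls in the same data, and the alternatives share most of their libraries. A kept sign was thus largely fixed in advance and is no support for the calls. The counts of 37 higher and 20 lower genes moved far more. DESeq2 called 209 and 89, limma-voom 31 and 13. A fit of only the 16 P14 and 8wk libraries called 0 and 0. Leaving out 1 library gave 4 to 204 higher and 0 to 165 lower genes, with 146 and 78 without 8wk_ME replicate 4 and 204 and 165 without 8wk_Control replicate 1. Leaving out the 3 libraries farthest from their groups, chosen after seeing the data, gave 264 and 192, which held 55 of the 57. Over the left-out libraries the ME effect was called for 2875 to 4678 genes at P14 and 3433 to 6571 at 8wk, the age contrast for 929 to 3115 genes in controls and 1357 to 2753 in ME cells. With no filter on low counts the age contrast of controls was called for 1483 genes in place of 2384. The difference of Mllt1 ranged from -0.305 to 0.051 log2 over the left-out libraries and was positive without P14_ME replicate 1 (0.051), P14_Control replicate 4 (0.048), 8wk_ME replicate 4 (0.001) and the 3 farthest libraries (0.083). With library sizes alone the median ME effect over all genes was 0.11 log2 at P14 and the share of higher genes among its calls was 70.5% in place of 57.5%. In the same setting that share was 38.7% in place of 54.4% for the age contrast of ME cells and 43.2% in place of 55.7% for that of controls. The causes of these moves were not tested.

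Replicate numbers were not taken to pair the samples. The deviations of same-numbered ME and control libraries correlated positively in all 4 pairs at P14 (0.106 to 0.357) and negatively in all 4 at 8wk (-0.367 to -0.072), and not every library correlated best with its own number. With the replicate block within age 2 genes were higher and 0 lower, and 0 of the 57 kept their call, while all 57 kept their sign. With a GC correction added there were 3 and 0, of which 1 was among the 57. The replicate block across ages gave 39 and 25. The age contrasts within ME or control cells could not be fitted with the block within age.

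Depth limits genes under about 1 CPM, such as Gfra4 and Gm30906, and at the median SE of 0.35 log2 many 2-fold differences could not be detected.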

Other observations

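Called genes outside the lists included 2 of the vacuolar proton pump (V-ATPase). The genes were grouped after their values were seen and carry no test as a group. Atp6v1a, its catalytic subunit, stood at 494, 392, 446 and 309 CPM in 8wk_ME against 195 to 235 CPM in 8wk_Control, and at 171 to 236 CPM in P14_ME against 176 to 219 CPM in P14_Control. The 8wk groups were separate and the P14 groups overlapped, with a difference of 0.85 ± 0.18 log2 (edgeR adjusted p = 0.0376). Atp6ap1, an accessory subunit, had a difference of 0.50 ± 0.11 log2 (adjusted p = 0.0381). From P14 to 8wk Atp6ap1 changed by -0.315 log2 in controls (adjusted p = 0.00962) and by 0.19 log2 in ME cells (adjusted p = 0.113). Of 20 V-ATPase genes tested, 2 were higher (0.195% of all genes) and 0 lower (0.106%). Positive differences were found for 15 (8097 of all 18931 genes), and the median was 0.16 log2.

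Il1r2 and Il1rl2 lie in a run of 6 receptor genes for IL-1 and IL-18 on chromosome 1 between 40074079 and 40551705 (GRCm38). The run was chosen after its values were seen and carries no test as a group. All 6 differences were positive (8097 of all 18931 genes), with 2 called (0.301% of all genes). The differences not called were 0.47 log2 for Il1r1 (adjusted p = 0.247), 0.10 log2 for Il1rl1 (adjusted p = 0.976), 0.22 log2 for Il18r1 (adjusted p = 0.85) and 0.52 log2 for Il18rap (adjusted p = 0.198).

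Ganab, an endoplasmic reticulum glucosidase, and Uqcc3 are near neighbours on chromosome 19, at 8898071 to 8916672 and at 8880014 to 8880923, and differed in opposite directions, by 0.67 ± 0.15 and by -1.07 ± 0.23 log2. From P14 to 8wk Ganab changed by -0.476 log2 in controls (adjusted p = 0.0056) and by 0.198 log2 in ME cells (adjusted p = 0.245). Sec61a1, the pore of the protein translocon, had a difference of 0.67 ± 0.14 log2 (adjusted p = 0.0376).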
